A study of Mus musculus with 64 samples.

Results

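Cytosolic sulfotransferases transfer a sulfonate group from the donor PAPS (3'-phosphoadenosine 5'-phosphosulfate) to phenols, steroids, bile acids, amines and thyroid hormones, which makes them more soluble in water and easier to excrete. The liver is a main site of this reaction, and the expression of several Sult genes is known to differ between male and female rodents. A total of 8 genes of this family, Sult1a1, Sult1b1, Sult1c2, Sult1d1, Sult1e1, Sult2a1, Sult3a1 and Sult5a1, were examined. They were taken by symbol from the 23338 genes counted in each library, and 12 further rows of the same family served for comparison. All 8 had a row in every library.

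The libraries came from 64 samples of C57BL/6 mice at 4 stages, with no treatment and no engineered allele. Livers of 12 adult males and 12 adult females had been taken at 15 to 20 weeks of age. Livers of 12 male and 12 female fetuses had been taken late in gestation. Single eight-cell embryos at 2.5 days post coitum, 6 of each sex from 4 litters, had been turned into libraries with a single-cell protocol, and their sex had been read from their own RNA. Embryonic stem (ES) cell lines, 2 of each sex, had been derived from eight-cell embryos and grown in 2i, a medium with inhibitors of the MAP kinase kinase and of glycogen synthase kinase 3. Each ES library stands for 1 line and each liver library for 1 whole piece of tissue, so fewer cells of a type and less RNA per cell cannot be told apart. The litters of the livers are not given in the labels, so the p-values measure the spread between these livers.

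Depth differed between stages. Reads on genes ran from 1567583 to 4757610 in adult livers, from 5145371 to 8499603 in fetal livers, from 4659656 to 7725432 in embryos and from 9857929 to 10386931 in ES lines. The smallest level that can be told from 0 was set at 3 reads, which over a whole group came to 0.0804 CPM (reads of a gene scaled to a common library total) in adult males, 0.103 CPM in adult females, 0.0390 CPM in fetal males and 0.0352 CPM in fetal females. Such limits cover counting error only. Xist, Eif2s3y and Ddx3y did not overlap between the sexes in livers or ES lines. In embryos this was no check, since their sex had been read from such genes. All 8 hepatocyte markers had reads in every liver group, with a summed level of 49910 to 67280 CPM in adult and 29520 to 41190 CPM in fetal livers. In adult livers the share of alignments that were not unique, and so were not counted, was 42.2 to 61.1% in males and 32.7 to 43.2% in females. The 8 erythroid markers summed to 154 to 195 CPM in adult males and 15.3 to 44.7 CPM in adult females, with 4 of the 8 without a read in each sex. The 7 markers of Kupffer cells and macrophages summed to 308 to 584 CPM in adult males and 414 to 888 CPM in adult females. By the test used below, 4 of the 7 were called higher in females, against none of the 8 hepatocyte markers and 6.48% of all genes. These properties moved with sex, and their part in the differences between males and females was not tested. In fetal livers the share of reads outside genes did not overlap between males, at 39.9 to 49.0%, and females, at 34.1 to 38.1%.

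One fetal library stood apart in its intestine markers. In fetal female 14 the 6 intestine markers summed to 1445 CPM, against 4.13 to 12.2 CPM in the other 23 fetal livers. Fabp2, an intestinal fatty acid binding protein, was at 526 CPM there, and Lct, the lactase of the small intestine, was at 515 CPM. Cdx2, a transcription factor that specifies the intestine, was at 24.1 CPM, whereas its median in the other fetal livers was 0. Results that include the fetal females are therefore given with and without fetal female 14 where it mattered. Other tissue markers were uneven as well. The 6 pancreas markers summed to at most 597 CPM in fetal females and 327 CPM in fetal males, at medians of 18.3 and 14.5 CPM. In adult females the 5 adipose markers reached 34.6 CPM at a median of 0. No fit left out livers for these markers, and their part in the results was not tested.

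The 8 genes lie on 5 chromosomes of the GRCm38 genome (the assembly named mm10), with positions from the GENCODE M21 annotation. Sult1b1 (chr5:87513339-87538195), Sult1d1 (chr5:87554645-87569027) and Sult1e1 (chr5:87575969-87591594) follow each other on the minus strand. Sult2a1 (chr7:13796246-13837409, minus strand) sits in a cluster of near-identical copies. Sult1a1 (chr7:126672865-126676432, minus strand) overlaps Sgf29 on the opposite strand. Sult5a1 (chr8:123140192-123158315, minus strand) overlaps the annotated Gm20388 on the opposite strand. Sult3a1 (chr10:33857721-33879532, plus strand) lies near its copy Sult3a2, which the files list as Gm4794. Sult1c2 lies at chr17:53829637-53846339 on the minus strand. The strand setting of the read counting was not given in the sources used here, so the counts of Sult1a1 and Sult5a1 may include reads of the opposite gene.

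Reads that match several places equally were not counted on genes, and this bears on the members unequally. Of the 971 windows of 50 bases in the Sult2a1 transcript, 322 (33.2%) were also present in another gene's transcript, and 286 of these were shared with Sult2a2. In Sult3a1, 68 of 1105 windows (6.15%) were shared, all with Sult3a2, and in Sult1a1 114 of 1240 (9.19%), of which 102 were shared with Gm6939 and 12 with Sgf29. Sult1b1, Sult1d1 and Sult1e1 shared none. The start of the coding sequence is shown for 2 pairs of genes that share windows, whether or not the shared windows lie there. The first 120 coding bases of Sult2a1 and Sult2a2 did not differ at any position. Those of Sult3a1 and Sult3a2 differed at 19 of 120 positions, which are written in capitals.
Sult2a1 and Sult2a2: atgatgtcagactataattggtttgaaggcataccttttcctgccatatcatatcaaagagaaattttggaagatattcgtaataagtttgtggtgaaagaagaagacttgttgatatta
Sult3a1: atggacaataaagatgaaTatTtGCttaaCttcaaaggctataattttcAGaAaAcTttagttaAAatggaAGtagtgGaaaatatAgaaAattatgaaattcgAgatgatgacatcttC
Sult3a2: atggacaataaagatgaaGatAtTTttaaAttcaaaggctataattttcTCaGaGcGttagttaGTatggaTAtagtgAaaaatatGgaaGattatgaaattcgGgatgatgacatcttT
Among the 8 members, coding sequences were 52.3% (Sult1d1 and Sult5a1) to 64.9% (Sult1b1 and Sult1d1) identical, whereas Sult2a1 and its neighbours Sult2a3, Sult2a4, Sult2a5 and Sult2a6 were 89.7 to 94.9% identical. The counts of Sult2a1 and Sult2a2 are therefore less certain than those of Sult1b1, Sult1d1 and Sult1e1.

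Sequence before the start site is shown for 3 members whose levels differed in kind: Sult3a1 (in adult liver, females alone), Sult1a1 (both sexes, higher in females) and Sult1b1 (both sexes alike in adult liver). The sequences are the 250 bases upstream of the RefSeq start in GRCm38.p6, written 5' to 3' along the gene.
Sult3a1, chr10:33857472-33857721, plus strand: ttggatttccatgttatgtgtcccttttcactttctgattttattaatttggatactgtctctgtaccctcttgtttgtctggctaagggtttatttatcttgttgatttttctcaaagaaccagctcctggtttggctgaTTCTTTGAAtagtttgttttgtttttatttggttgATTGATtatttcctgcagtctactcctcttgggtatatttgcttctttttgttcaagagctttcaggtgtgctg
Sult1a1, chr7:126676419-126676668, minus strand: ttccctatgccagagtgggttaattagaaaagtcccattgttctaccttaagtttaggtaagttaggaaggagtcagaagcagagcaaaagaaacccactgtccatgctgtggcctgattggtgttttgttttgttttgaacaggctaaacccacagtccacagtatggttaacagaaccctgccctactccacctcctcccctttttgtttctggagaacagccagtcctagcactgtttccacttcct
Sult1b1 (first of 2 RefSeq starts), chr5:87538196-87538445, minus strand: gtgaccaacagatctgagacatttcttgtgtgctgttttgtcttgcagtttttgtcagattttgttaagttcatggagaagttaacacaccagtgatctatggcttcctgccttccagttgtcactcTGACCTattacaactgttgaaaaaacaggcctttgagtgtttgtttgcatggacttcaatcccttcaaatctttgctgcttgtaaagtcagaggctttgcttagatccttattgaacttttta
Capitals mark the motifs that were searched on both strands in windows from 250 bases before to 50 bases after the start. These were TTCNNNGAA, the letters bound by STAT5, ATTGAT, the core bound by HNF6, AGGTCA, the half-site of nuclear receptors, and TGTTTAC, bound by FOXA proteins. TTCNNNGAA occurred in 8.30% of 32851 promoters, ATTGAT in 7.54%, AGGTCA in 16.3% and TGTTTAC in 3.65%. The Sult3a1 window held TTCNNNGAA at position -109 and ATTGAT at -74. The Sult1b1 window held AGGTCA at -123 and +39, that of Sult1e1 held it at -113, and that of Sult1d1 held TGTTTAC at +33. The windows of Sult1a1, Sult1c2 and Sult5a1 held none of the 4. Sult2a1 had no entry. These matches describe letters and no binding was measured.

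In adult liver, females had more reads of most sulfotransferases. Of the 8 members, 7 had enough reads to be tested, and 6 of them were called higher in females while none was called higher in males. Sult2a1 and Sult3a1 had 1 and 0 reads in males, so they passed the filter through the females alone. The test was edgeR's quasi-likelihood test across 10372 genes, and a call meant an adjusted p under 0.1 with an absolute log2 (male/female) above 0.5. Of all genes tested, 9.49% were called and 6.48% were called higher in females. Sult1b1 was the tested member with no call, and Sult1e1 had too few reads. The median log2 (male/female) was -1.18 over the tested members and -0.00094 over all genes. For 4 members (Sult1a1, Sult1d1, Sult2a1 and Sult3a1) the lowest female lay above the highest male, as it did for 1.52% of the genes tested.

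**Figure D1:**
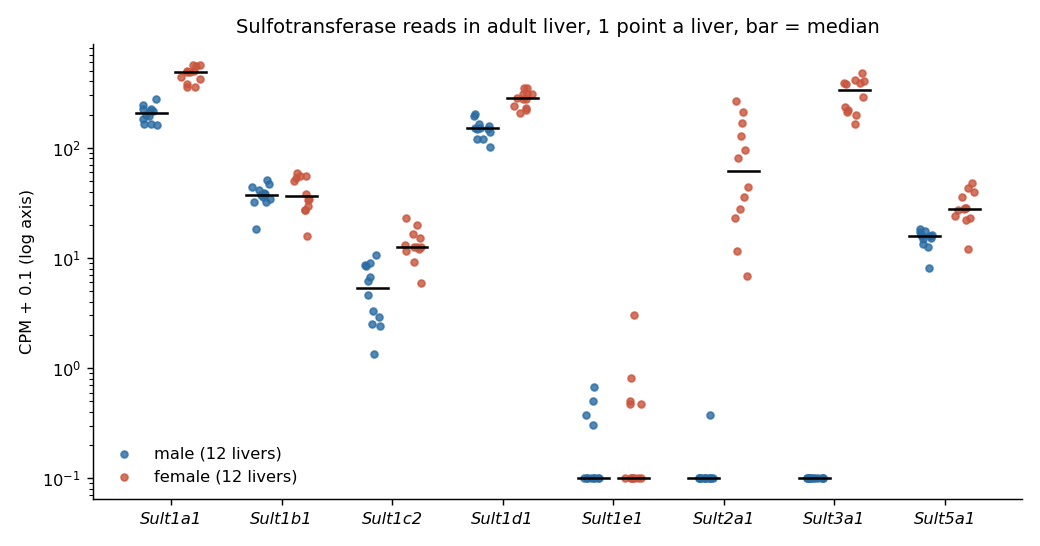
CPM of each member in every adult liver, on a log axis after adding 0.1 so that livers without a read can be drawn; points are livers (blue male, red female) and bars are group medians. Sult3a1 was without reads in all 12 males and at 165 to 477 CPM in the 12 females, Sult2a1 spread from 6.77 to 263 CPM among females, and Sult1b1 overlapped between the sexes.

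Sult3a1, which sulfonates amines, was found in adult females alone. None of the 12 adult males had a single read. The 12 females had 348 to 1351 reads each, with a lowest level of 165 CPM, a median of 333 CPM and a highest of 477 CPM. Every female therefore lay far above every male. Set against the floor of 3 reads over all males, the pooled female level was at least 3854-fold higher (adjusted p = 2.20e-09, edgeR's quasi-likelihood test). Its copy Sult3a2 had 0 reads in males as well and 5.59 to 41.5 CPM in females (at least 282-fold higher, edgeR adjusted p = 4.57e-05).

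Sult2a1 is a hydroxysteroid sulfotransferase that acts on dehydroepiandrosterone and bile acids. A single read was counted over the 12 adult males, in 1 liver. Females had 18 to 797 reads, with a lowest level of 6.77 CPM, a median of 61.9 CPM and a highest of 263 CPM. The sexes did not overlap, and the females themselves spread over 38.8-fold. The pooled level in females was 3543 times that in males, with an exact 95% counting interval of 635 to 139979 (edgeR's quasi-likelihood adjusted p = 8.83e-08). The wide interval comes from the single male read.

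Other Sult2a genes on chromosome 7, with 1 exception, had most of their reads in females. Sult2a2 had 2 reads over the males and 12.1 to 164 CPM in the females (edgeR adjusted p = 1.51e-08). Sult2a3 had no male read and up to 27.7 CPM in females. Sult2a5 had no male read and up to 11.6 CPM in females, and 2 females had none either. Sult2a7 had reads in every male, at 0.628 to 2.45 CPM, and 1.20 to 36.0 CPM in females, so those ranges overlapped. These 3 did not pass the expression filter. Without the filter, edgeR called all 3 higher in females (adjusted p = 0.0202 for Sult2a3, 0.00519 for Sult2a5 and 2.20e-05 for Sult2a7), and DESeq2 did too. Sult2a4 and Sult2a6 had no read in any adult liver. The row 2810007J24Rik, named Sult2a8 in RefSeq, went the other way, at 821 ± 150 CPM in females against 1124 ± 144 CPM in males (SD, n = 12 each). That difference in log2 (male/female) was 0.45 (SE 0.089, edgeR adjusted p = 2.73e-04), which is under the fold threshold.

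Sult1a1, a phenol sulfotransferase, was present in both sexes. Males had 160 CPM at the lowest, 206 CPM at the median and 279 CPM at the highest. Females had 356, 487 and 567 CPM in the same order. No female fell into the male range. The mean was 205 ± 36.1 CPM in males and 467 ± 76.8 CPM in females (SD, n = 12 each), a log2 (male/female) of -1.18 (SE 0.094, edgeR adjusted p = 3.16e-11).

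Sult1d1, known for sulfonating catecholamines in the mouse, lay above the male range in all females, though narrowly. Male levels had a minimum of 102 CPM, a median of 149 CPM and a maximum of 204.2 CPM. Female levels had a minimum of 204.4 CPM, a median of 281 CPM and a maximum of 347 CPM. The 2 ranges met but did not overlap, with a log2 (male/female) of -0.90 (SE 0.10, edgeR adjusted p = 5.34e-08).

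Sult5a1 and Sult1c2 were lower in level and overlapped between the sexes. Sult5a1 ran from 8.00 through 15.7 to 18.3 CPM in males and from 11.9 through 28.0 to 47.4 CPM in females (lowest, median, highest). The log2 (male/female) was -0.98 (SE 0.16, edgeR adjusted p = 1.88e-05). Sult1c2, of the Sult1 branch, ran from 1.26 through 5.26 to 10.5 CPM in males and from 5.82 through 12.5 to 22.9 CPM in females. Its log2 (male/female) was -1.25 (SE 0.24, edgeR adjusted p = 1.96e-04). Between 2 and 52 reads lay behind a male value of Sult1c2.

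Sult1b1, which sulfonates thyroid hormones, did not pass the test in adult liver. Levels were 18.2 CPM at the lowest, 37.4 CPM at the median and 50.6 CPM at the highest in males, and 15.8, 36.3 and 58.9 CPM in females. The female range enclosed the male range. The log2 (male/female) was -0.068 (SE 0.18, edgeR adjusted p = 0.822).

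Sult1e1, the oestrogen sulfotransferase, was at the limit of detection. It had 5 reads over all adult males and 10 over all adult females, 5 of which came from female 21. In 8 males and 7 females no read was counted. No difference between the sexes was detectable at this depth.

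Levels between genes were compared as CPM per kilobase of the protein-coding transcript with the longest coding sequence. In adult females Sult1a1 was first at 362 ± 59.6 (SD, n = 12) CPM per kilobase and Sult3a1 next at 271 ± 90.3, with overlapping ranges although Sult1a1 was the higher in 10 of 12 livers. Sult1d1 followed at 115 ± 19.4 and Sult2a1 at 89.2 ± 82.7 CPM per kilobase, and their ranges overlapped too. Below them came Sult1b1 at 15.2 ± 5.41, Sult5a1 at 7.83 ± 2.62 and Sult1c2 at 7.35 ± 2.45 CPM per kilobase, of which the last pair changed order between livers, with Sult5a1 above in 7 of 12. Sult1e1 was last at 0.319 ± 0.666 CPM per kilobase. In adult males the order was Sult1a1 (159 ± 28.0), Sult1d1 (61.9 ± 12.1), Sult1b1 (14.3 ± 3.17), Sult5a1 (3.93 ± 0.720) and Sult1c2 (2.94 ± 1.68 CPM per kilobase). Each of the first 3 stood clear of the next, whereas Sult5a1 and Sult1c2 overlapped.

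The genes whose adult levels were most like each member's were taken as those with a high Pearson r of log2(CPM + 0.5) over the 24 adult livers. These r values hold the difference between the sexes as well as differences between livers, and they are given as a description. Cyp2a4, a steroid hydroxylase, was near Sult3a1 (r = 0.995). Sult2a1 was nearest to Cyp3a16 (r = 0.984) and Cyp3a41a (r = 0.981), both cytochromes P450. Sult1a1 was nearest to Serpina3m (r = 0.966) and Mgst3 (r = 0.965), and Sult1d1 to Slco1a4, an organic anion transporter (r = 0.929), and again Mgst3 (r = 0.922). Afm was near Sult1c2 (r = 0.863). For Sult5a1 the nearest were Gpcpd1 (r = 0.857) and F7 (r = 0.851), and for Sult1b1 Bhmt (r = 0.837) and Adhfe1 (r = 0.820).

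Within one sex, few pairs of members were called as moving together. With 12 livers a pair, moderate relations may have been missed. Pearson's r of log2(CPM + 0.5) was computed for 31 pairs of members, each over the 12 livers of 1 sex, with two-sided permutation tests. After adjustment over the 31 pairs, 2 pairs passed 0.05, both in females. Sult1b1 and Sult2a1 had r = 0.858 (permutation p = 0.00038, adjusted p = 0.0118; Spearman's rho = 0.818, permutation p = 0.00198, adjusted p = 0.0321). Without the 2 livers farthest from the median of Sult1b1, r was 0.816. Sult1b1 and Sult3a1 had r = 0.785 (permutation p = 0.00279, adjusted p = 0.0432; rho = 0.769, permutation p = 0.00457, adjusted p = 0.0472), and r = 0.661 without the 2 farthest livers. With library totals in place of TMM, the first pair kept its call (r = 0.859, permutation p = 0.00036, adjusted p = 0.0112) and the second did not (r = 0.771, permutation p = 0.00367, adjusted p = 0.0569). The share of alignments that were not unique varied with these genes in the same 12 females (r = 0.718 for Sult1b1, 0.552 for Sult2a1 and 0.624 for Sult3a1, given as a description), and its part in the relation was not tested. Sult2a1 and Sult3a1 themselves had r = 0.511 (permutation p = 0.092, adjusted p = 0.302; rho = 0.476, permutation p = 0.122, adjusted p = 0.401), which fell to 0.140 without the 2 farthest livers. In males, Sult1b1 and Sult5a1 had rho = -0.811 (permutation p = 0.00207, adjusted p = 0.0321) but r = -0.486 (permutation p = 0.107, adjusted p = 0.302). Sult2a2 followed Sult2a1 across the 12 females with r = 0.966, a value given as a description since the genes share sequence.

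**Figure D2:**
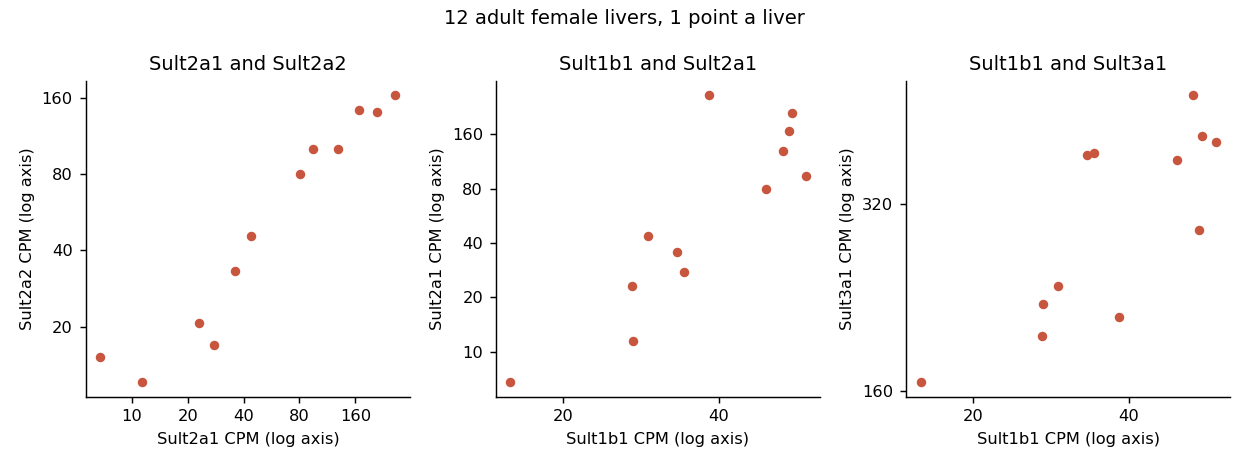
CPM of pairs of genes in the 12 adult female livers on log axes, 1 point a liver. Sult2a2 rose with Sult2a1 over a 38.8-fold span of Sult2a1 (r = 0.966), and Sult2a1 and Sult3a1 tended to be higher where Sult1b1 was higher (r = 0.858 and 0.785).

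In fetal liver 3 members, Sult1a1, Sult1b1 and Sult1d1, had enough reads to be tested, and Sult1b1 alone was called. Among the 12930 genes tested, 4.64% were called and 0.828% were called higher in females. Sult1a1 was at 157, 181 and 234 CPM in males and 161, 192 and 252 CPM in females (lowest, median, highest). The ranges lay over each other, with a log2 (male/female) of -0.065 (SE 0.066, edgeR adjusted p = 0.487). Sult1d1 was at 24.1, 31.4 and 42.0 CPM in males and 24.5, 30.1 and 94.1 CPM in females, with a log2 (male/female) of -0.21 (SE 0.19, edgeR adjusted p = 0.433). The highest Sult1d1 value belonged to fetal female 14, and without that library its log2 (male/female) was -0.00039 (SE 0.12, edgeR adjusted p = 0.999).

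Sult1b1 was the member called in fetal liver, and the call rested on 1 library. Males lay at 2.20, 2.64 and 3.33 CPM (lowest, median, highest). In fetal female 14, Sult1b1 was at 65.5 CPM from 464 reads, whereas the other 11 females lay at 1.65 to 3.18 CPM from 12 to 22 reads. With all 24 livers the log2 (male/female) was -1.51 (SE 0.66, edgeR adjusted p = 0.0878). Without fetal female 14 it was 0.21 (SE 0.12, edgeR adjusted p = 0.255), and no member was called. DESeq2 on all 24 livers called none either. The same library carried the intestine markers at 1445 CPM, and their part in its Sult1b1 and Sult1d1 levels was not tested.

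**Figure D3:**
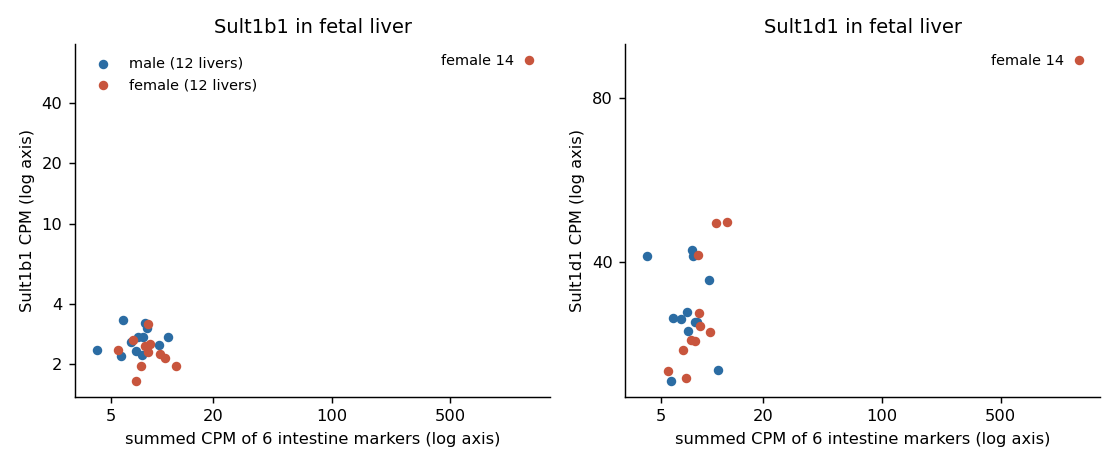
Sult1b1 (left) and Sult1d1 (right) in each of the 24 fetal livers against the summed CPM of the 6 intestine markers, both on log axes. Fetal female 14, at 1445 CPM of markers, held 65.5 CPM of Sult1b1 and 94.1 CPM of Sult1d1, apart from the other 23 livers.

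The remaining members were scarce before birth. Sult2a1 had 0 to 13 reads per fetal male and 1 to 22 per fetal female, at 1.19 ± 0.591 and 1.54 ± 0.793 CPM (SD, n = 12 each), and was too low for the filter. Sult5a1 averaged 0.533 CPM in males and 0.695 CPM in females. Sult1c2 had 5 and 11 reads over the groups, Sult3a1 had 5 and 3, and Sult1e1 had 1 and 1 (males, then females). None of the 5 passed the expression filter in fetal liver, and without it edgeR called none of them between the sexes. The log2 (male/female) was then -0.40 for Sult2a1 (SE 0.32, edgeR adjusted p = 0.432) and -0.38 for Sult5a1 (SE 0.34, edgeR adjusted p = 0.47).

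Whether the sex difference itself changed from fetal to adult liver was tested as an interaction over all livers. Of 13026 genes, 13.7% were called, and 8.53% were called in the direction of more female bias in the adult. Of 7 tested members 5 were called, and 4 of them (Sult1a1, Sult1d1, Sult2a1 and Sult3a1) were more female-biased in adult liver. Sult2a1 and Sult3a1 passed the filter through the adult females alone, so this count was partly set by the filter. The difference in log2 (male/female), adult minus fetal, was -1.07 for Sult1a1 (SE 0.12, edgeR adjusted p = 4.97e-10) and -0.65 for Sult1d1 (SE 0.21, edgeR adjusted p = 0.0199). Without fetal female 14, that of Sult1d1 was -0.85 (SE 0.16, edgeR adjusted p = 9.47e-05). For Sult2a1 and Sult3a1 the edgeR adjusted p was 3.65e-06 and 4.64e-04, and their fitted size depends on the prior count because adult males had 1 and 0 reads. The fetal side of Sult3a1 was 5 reads over the males and 3 over the females. Sult1b1 was called the other way at 1.47 (edgeR adjusted p = 0.0958), and without fetal female 14 it was -0.23 (edgeR adjusted p = 0.560). With the share of reads outside genes as a covariate, the calls of Sult1a1 (edgeR adjusted p = 5.29e-05) and Sult2a1 (edgeR adjusted p = 0.00772) remained, and those of Sult1d1 (-0.93, edgeR adjusted p = 0.142) and Sult3a1 (-13.89, edgeR adjusted p = 0.105) did not, at differences as large as or close to those without it. Sult5a1 had a difference of -0.56 (SE 0.41, edgeR adjusted p = 0.329), and Sult1c2 had too few fetal reads for a useful value (SE 2.23).

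**Figure D4:**
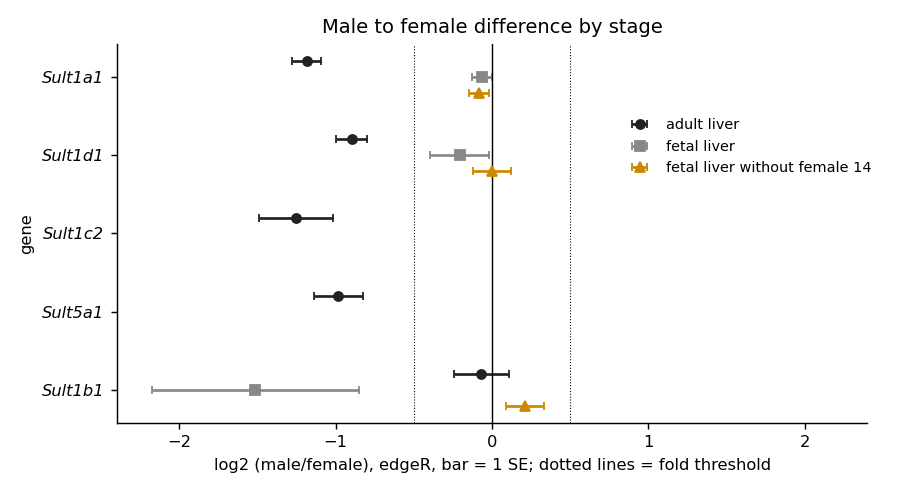
Fitted log2 (male/female) with 1 SE for Sult1a1, Sult1d1, Sult1c2, Sult5a1 and Sult1b1, which had at least 2 reads in every adult liver, in adult livers (circles), fetal livers (squares) and fetal livers without female 14 (triangles); negative values are higher in females and dotted lines mark the fold threshold of 0.5. Adult values of Sult1a1, Sult1d1, Sult1c2 and Sult5a1 lie between -1.25 and -0.90, fetal Sult1a1 is at -0.065, Sult1c2 and Sult5a1 have no fetal value here because they did not pass the filter, and fetal Sult1b1 moves from -1.51 to 0.21 when female 14 is left out.

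Between fetal and adult liver, 5 members rose. Of 13026 genes tested, 67.1% were called between the stages and 31.7% were called higher in adult liver. Of 7 tested members, 5 were called and all 5 were higher in adult liver. The median log2 (adult/fetal) of the tested members was 3.67, the value of Sult1b1, and that of all genes was -0.047. Sult1c2, Sult2a1, Sult3a1 and Sult5a1 did not pass the filter in fetal liver and entered through the adult groups. The count and the median were therefore partly set by the filter. The fitted values of Sult2a1 (SE 4.38) and Sult3a1 (SE 646) were not useful. The log2 (adult/fetal), averaged over the sexes, was 6.76 for Sult1c2 (SE 0.27, edgeR adjusted p = 7.65e-30), 5.61 for Sult5a1 (SE 0.15, edgeR adjusted p = 7.27e-39) and 3.10 for Sult1d1 (SE 0.11, edgeR adjusted p = 2.25e-29). For Sult1b1 it was 3.67 (SE 0.32, edgeR adjusted p = 1.59e-14) and 4.52 without fetal female 14 (SE 0.12, edgeR adjusted p = 1.24e-37). Sult1a1 changed least of the 5, at 1.27 (SE 0.060, edgeR adjusted p = 1.63e-26). The cell makeup moved with stage as well: the 8 erythroid markers summed to 2068 to 3090 CPM in fetal livers and 15.3 to 195 CPM in adult livers, all 5 tested were called lower in the adult, and all 8 hepatocyte markers were called higher (median log2 1.45). The part of this in the rise of the members was not tested.

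Each sex was also fitted alone. In males, 32.1% of the genes tested were called higher in the adult, and in females 30.5%. All 4 members that passed the filter in males and all 7 that passed it in females were called higher in the adult. Sult1c2, Sult2a1, Sult3a1 and Sult5a1, which did not pass in fetal liver, passed in females through the adult group, where they were high. In males Sult5a1 passed in the same way and Sult2a1 did not pass, so these counts were partly set by the filter. For Sult1a1 the log2 (adult/fetal) was 0.70 in males (SE 0.081, edgeR adjusted p = 2.56e-09), and 1.78 in females (SE 0.084, edgeR adjusted p = 6.14e-19). The male value rests on the TMM scaling between stages. As a share of library totals Sult1a1 differed by 0.15 in males (SE 0.080, edgeR adjusted p = 0.0859), which is under the fold threshold, and by 1.25 in females (SE 0.078, edgeR adjusted p = 8.95e-16), a fit added after the values were seen. The CPM of adult and fetal males overlapped, with means of 205 and 187, and those of females did not. On the log2 scale Sult1d1 rose by 2.74 in males (SE 0.11, edgeR adjusted p = 3.19e-19) and by 3.40 in females (SE 0.19, edgeR adjusted p = 2.76e-14). Sult3a1 rose in females from 3 reads over 12 fetal livers to 8992 reads over 12 adult livers (edgeR adjusted p = 3.33e-21). In males it had 5 reads over the fetal group and 0 over the adult group, both near the floor.

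Sult2a1 moved in opposite directions in the 2 sexes. In females the mean went from 1.54 CPM in fetal to 91.0 CPM in adult liver, a log2 (adult/fetal) of 6.36 (SE 0.60, edgeR adjusted p = 8.00e-10), with no overlap. In males 90 reads over the fetal group stood against 1 read over the adult group, or 1.19 and 0.0227 CPM on average. The pooled fetal male level was 43.7 times the adult one, with an exact 95% counting interval of 7.64 to 1740, and 11 of 12 fetal males but 1 of 12 adult males had a read. Chosen after these values were seen, a two-sided permutation test of the mean CPM between 12 adult and 12 fetal males gave p = 6.00e-05, and for Sult2a2, which fell from 0.794 to 0.0347 CPM, it gave p = 2.00e-05, the smallest these permutations can give (adjusted over both, 6.00e-05 and 4.00e-05). As 33.2% of Sult2a1 windows are shared with other genes, these males may hold uncounted reads of the cluster.

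**Figure D5:**
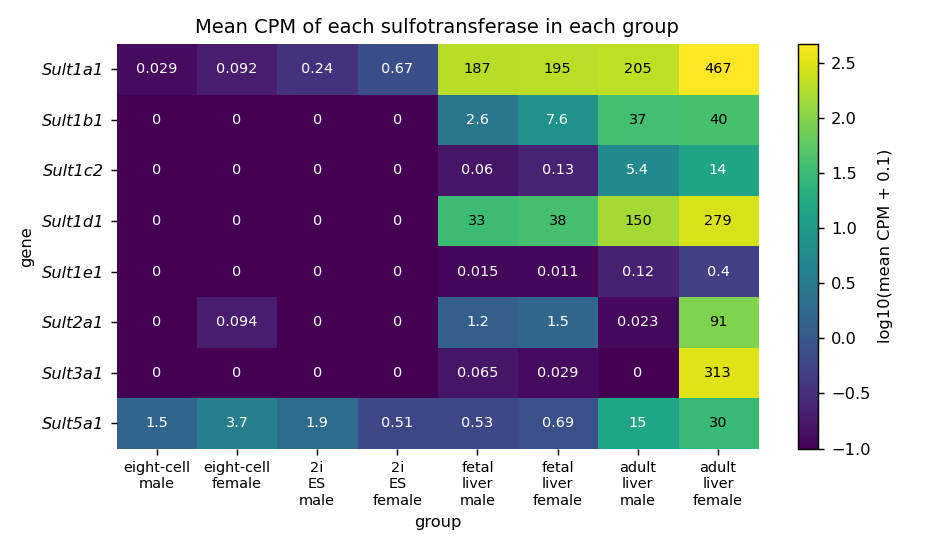
Mean CPM of each member in the 8 groups, with colour on a log10 scale after adding 0.1 and the mean printed in each cell. The TMM scaling was done within each stage. Sult1a1 is at 187 to 205 CPM in both fetal groups and in adult males and at 467 CPM in adult females. Sult2a1 and Sult3a1 reach 91.0 and 313 CPM in adult females alone. In the embryo and ES columns Sult5a1 is at 0.509 to 3.67 CPM. Sult1a1 is at 0.239 CPM in male and 0.665 CPM in female ES lines, and the other cells of these columns are at or near 0.

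In eight-cell embryos and ES lines, 7 of the 8 members had few or no reads. Sult1b1, Sult1c2, Sult1d1, Sult1e1 and Sult3a1 had no read in any of the 12 embryos or the 4 ES lines. Over a group, 3 reads would be 0.0816 CPM in female embryos, 0.0823 CPM in male embryos, 0.151 CPM in female ES lines and 0.145 CPM in male ES lines, so levels below these cannot be told from 0. Sult2a1 had 3 reads in 1 female embryo. Sult1a1 had 1 read over the male and 3 over the female embryos, and it was at 0.191 and 0.286 CPM in the 2 male ES lines and 0.404 and 0.927 CPM in the 2 female lines. Sult5a1 was uneven between embryos. Its reads were 0, 7, 28, 0, 0 and 10 in the 6 male embryos and 0, 13, 4, 24, 0 and 79 in the 6 female embryos, and the highest reached 14.5 CPM. Embryos of the same sex thus ranged from no read to well above the floor. In ES lines Sult5a1 was at 1.15 and 2.67 CPM in males and 0.606 and 0.412 CPM in females. No test was made, because the embryo libraries were built with another protocol and there were 2 ES lines of each sex.

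The donor PAPS is made from sulfate and ATP by PAPS synthases, and its product is cleared by nucleotidases. Of the 6 genes for PAPS synthesis and recycling, 6 were tested in adult liver. Among them 1 was called higher in females and 5 were not called, where 6.48% of all genes were called higher in females. Their median log2 (male/female) was 0.20. The called gene was Papss2, the main hepatic PAPS synthase, at 193 ± 29.4 CPM in males and 449 ± 56.2 CPM in females (SD, n = 12 each), a log2 (male/female) of -1.22 (SE 0.077, edgeR adjusted p = 3.31e-14). Papss1, the other synthase, was at 26.7 ± 5.85 and 20.7 ± 3.74 CPM and was not called. In fetal liver none of the 6 was called. Between the stages 2 of the 6 were called higher in adult liver, where 31.7% of all genes were called higher. These were Papss2, at 79.2 and 75.3 CPM in fetal males and females (edgeR adjusted p = 1.02e-45), and Bpnt1, a nucleotidase, with a log2 (adult/fetal) of 1.90 (SE 0.17, edgeR adjusted p = 3.91e-14). Over all genes, 13.7% were called in the interaction. There Papss2 was called more female-biased in the adult (-1.24, SE 0.094, edgeR adjusted p = 8.23e-16), while Papss1 (0.66, SE 0.16, edgeR adjusted p = 0.00172) and Bpnt1 (1.04, SE 0.34, edgeR adjusted p = 0.0182) were called the other way. Without fetal female 14, Papss2 (-1.24) and Papss1 (0.53, SE 0.12, edgeR adjusted p = 6.30e-04) were still called, whereas Bpnt1 fell under the fold threshold (0.45, SE 0.10, edgeR adjusted p = 8.59e-04).

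In adult liver 9.49% of all genes were called. Of 8 genes for sulfate uptake and sulfite oxidation, 6 were tested, and 1 was called in adult liver. This was Cdo1, the cysteine dioxygenase, where females had 1381 ± 87.5 CPM and males 948 ± 84.1 CPM (SD, n = 12 each, log2 -0.54, SE 0.051, edgeR adjusted p = 4.19e-10). Of 14 sulfatases and activators, which remove sulfate groups or activate the enzymes that do, 11 were tested. Among these, 2 were called higher in males, Arsa (log2 1.48, SE 0.15, edgeR adjusted p = 5.81e-09) and Arsg (log2 0.51, SE 0.13, edgeR adjusted p = 0.00461). One was called higher in females, Sulf2 (log2 -0.94, SE 0.21, edgeR adjusted p = 0.00135), an extracellular sulfatase. In adult against fetal liver, 5 of 6 sulfate genes were called higher and 1 lower in the adult, and 8 of 12 sulfatase genes higher and 2 lower, where 31.7% of all genes were called higher.

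All 17 transcription factors known for Sult genes in liver were tested in adult liver. Of these, 1 was called higher in males, 3 were called higher in females and 13 were not called. Over all genes tested, 9.49% were called and 6.48% were called higher in females. The median log2 (male/female) of the 17 factors was -0.0079. Bcl6, a repressor, was higher in males (37.2 ± 23.7 against 10.4 ± 8.61 CPM, log2 1.79, SE 0.43, edgeR adjusted p = 0.00350). Cux2, a repressor known from female liver, was at 0.382 ± 0.286 CPM in adult males and 30.0 ± 10.4 CPM in adult females (edgeR adjusted p = 3.99e-18). Before birth it was present in both sexes, at 39.8 ± 9.03 CPM in males and 32.7 ± 4.18 CPM in females. Esr1, the oestrogen receptor, and Nr1i3, the constitutive androstane receptor, were the other 2 that were higher in adult females, with log2 (male/female) values of -1.53 (SE 0.095, edgeR adjusted p = 1.93e-14) and -0.68 (SE 0.14, edgeR adjusted p = 6.77e-04). Among fetal livers 2 of these factors were called, both higher in males, Onecut1 (which encodes HNF6) at 0.82 and Esr1 at 0.53, where 4.64% of all genes were called. With the share of reads outside genes as a covariate, neither was called (0.064 and 0.32), and without fetal female 14 Esr1 was under the fold threshold (0.46).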

How the data were processed

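RNA of 64 samples had been sequenced. Libraries of livers and ES lines had been made from total RNA with a stranded kit. Those of embryos had been made from amplified cDNA with a single-cell protocol. The authors deposited whole-number read counts per gene, made with TopHat2 2.0.4, Bowtie2 2.1.0 and SAMtools 0.1.18 on mm10, removal of duplicates with Picard and assignment with HTSeq (versions and build per the labels; the strand setting is not given in the sources used here). The summary rows of each file (no feature, ambiguous, not unique) were left out. Reads outside genes were 8.63 to 49.0% of a library's reads on and outside genes. Groups followed the labels. Libraries had been pooled 12 to a lane, and where lanes followed sex, lane and sex cannot be told apart. Counts were fitted with edgeR 4.0.16 (TMM, filterByExpr, robust quasi-likelihood test) in R 4.3.3 over all genes and adjusted by Benjamini-Hochberg. CPM used the TMM factors of each stage. DESeq2 1.42.0 and other scalings, filters, covariates and left-out livers were alternatives. Scripts were tested on simulated data. Correlations used 100000 permutations and a pseudocount of 0.5 CPM. Transcripts came from GENCODE M21 and upstream sequence from RefSeq (7 of 8 members matched).

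Named were the 8 members, other rows of the family, at most 3 genes a list with the smallest adjusted p in each direction in adult liver (Nr1i3, Papss1, Bpnt1 and Onecut1 were added after their values were seen), and the 2 nearest genes of each member with a mean of at least 1 CPM in adult liver of either sex, of which some are not reported here. The members and lists were chosen with earlier results of these data known. The replicate numbers of males and females do not overlap within a stage. Between stages, same-numbered livers did not deviate together (24 pairs, r = -0.066 to 0.050), so no pairing was used.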

Additional observations from a re-analysis of the deposited data

Results flagged for a closer look

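For 5 of 7 tested members the difference between males and females was called as changed between adult and fetal liver. The test was that of the interaction (edgeR, adjusted over all genes), where 13.7% of all genes were called. The adult minus fetal difference in log2 (male/female) was -1.07 for Sult1a1, -0.65 for Sult1d1, -10.50 for Sult2a1 and -14.49 for Sult3a1, each more female-biased in the adult, and the last pair of values depends on the prior count. For Sult1b1 it was 1.47, and without fetal female 14 it was -0.23 and was not called. Sult2a1 and Sult3a1 had passed the expression filter through the adult females alone. With the share of reads outside genes as a covariate, the calls of Sult1a1 and Sult2a1 remained. Those of Sult1b1, Sult1d1 and Sult3a1 did not.

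In eight-cell embryos, 1 embryo in each sex lay apart from the other 5 in Sult5a1, at 6.35 CPM in a male and 14.5 CPM in a female (Dixon's test at the 95% level). That level holds for normally distributed values. Several embryos of each sex had no read, so how often chance passes the test here is not known. The cause of the high values was not tested.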

How the results depend on the processing

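In adult liver, 6 members were called under each of 8 alternatives and 24 single left-out livers, and no direction of a called member changed. The count of all genes moved from 984 to 3400 without the fold threshold and 1518 without the filter (932 to 1055 with 1 liver left out). In fetal liver, Sult1b1 was the only member called (1 member). It was 0 members with DESeq2 (log2 0.21), without the filter, with the share of reads outside genes as covariate (log2 0.62) and without fetal female 14 (log2 0.21). With 1 liver left out the count was 0 to 1 and the log2 -1.62 to 0.21; it lost the call in 12 of 24 such fits, 11 of them without a male. The fetal count of all genes moved from 600 to 4807 without the fold threshold, 1057 without the filter and 9 with the covariate, which does not overlap between the sexes. In the interaction that covariate left 2 of 5 members and 744 of 1787 genes and turned Sult1b1 to -1.17, and leaving out fetal female 14, chosen after seeing the data, turned it to -0.23. Between stages, DESeq2 called 8 members against 5, and library totals without TMM shifted the median of all genes from -0.047 to -0.61 and the share higher in adult from 47.3 to 25.4% of calls, with the same number of members (5) called higher. In males alone, added after seeing the data, library totals called 3 members in place of 4. The fit with a replicate block called 7 members and 8753 genes between stages, against 5 and 8742. Library totals left 1 of 2 pairs of members (Sult1b1 and Sult2a1). Other causes were not tested. Depth limits Sult1e1 at all stages and Sult1c2, Sult3a1 and Sult5a1 before birth.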

Other observations

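Other genes of the family were present where the 8 members were not. In ES lines Sult6b1 was at 25.4 and 25.3 CPM in the 2 male lines and 17.5 and 10.3 CPM in the 2 female lines. It had 2 reads over all embryos. Sult4a1, known from brain, was at 23.4 and 22.8 CPM in male and 9.09 and 10.2 CPM in female ES lines, and at 3.81 to 30.0 CPM in embryos. Sult2b1, a cholesterol sulfotransferase, was at 2.58 to 3.13 CPM in ES lines and 10.7 to 50.9 CPM in embryos. No test was made between these groups. In adult liver, Sult6b1 had no read, and Sult2b1 and Sult4a1 had 3 and 6 reads over 24 livers.

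Sult2a8 (2810007J24Rik) had the highest count of the family in adult liver. It rose between the stages by 7.97 on the log2 scale in males (SE 0.13, edgeR adjusted p = 5.72e-29) and 7.34 in females (SE 0.20, edgeR adjusted p = 2.81e-21). Its difference in log2 (male/female), adult minus fetal, was 0.64 (SE 0.22, edgeR adjusted p = 0.0278), the opposite sign to that of Sult1a1 and Sult1d1. Sult2a6 had 56 reads in 1 male embryo and 26, 14 and 1 reads in 3 female embryos, and none in the other 8 embryos.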
